A study of Mus musculus with 12 samples.

Results

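Among the 55416 genes counted in these mouse embryonic stem cell libraries, 93 are protein-coding, carry a symbol of the form Zfp followed by a number and at most 1 further letter, and lie on chromosome 2, 4 or 13. They were chosen by that rule from name and position alone, with Zfp352 left out. Chromosome 2 holds 28 of them, chromosome 4 holds 29 and chromosome 13 holds 36. In all, 80 passed the low-count filter and entered the tests, and 13 did not. The genes with the strongest difference between the lines were those of 1 dense array on chromosome 4, described first.

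Most clustered Zfp genes of the mouse encode proteins in which a KRAB domain is joined to a row of C2H2 zinc fingers. The fingers read DNA, often that of retrotransposons, and the KRAB domain recruits TRIM28 (KAP1), through which the methyltransferase SETDB1 places H3K9me3 and the site is silenced. The arrays on chromosomes 2, 4 and 13 expanded by tandem duplication in the mouse lineage, and in pluripotent cells this system holds endogenous retroviruses silent. The array on chromosome 13 includes the regulator of sex-limitation (Rsl) genes, known for restraining male-specific liver genes. Zfp genes that lie alone are more varied, and several encode transcription or RNA-binding factors without a KRAB domain.

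The embryonic stem cells were Bl/6J, either wild type (WT) or of clone 46, in which Oct4, the pluripotency factor encoded by Pou5f1, carries a cysteine-to-serine change named C48S. Each was sequenced undifferentiated, in medium with the MEK inhibitor PD (1 µM), the GSK3 inhibitor CHIR (3 µM) and ascorbic acid, and after 2 days in medium lacking LIF with 1.5 mg/L of retinoic acid (RA), with 3 libraries in each of the 4 groups. Whether the inhibitors stayed in the medium with RA is not stated in the labels, so RA and the change of medium cannot be told apart. The C48S line is a single clone, and what the mutation does cannot be told apart from what else sets that clone apart. The treatment field names a different day, from 2 upwards, for each RA library, whereas titles and protocol give day 2, which was used. No label says that replicates were separate cultures, so the p-values reflect library-to-library spread that may be technical.

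Library totals ran from 8678088 to 13597098 counts. C48S undifferentiated replicate 3 stood apart from the other libraries of its group, since its chi-square over genes, divided by the degrees of freedom, was 9.94 and 9.70 against replicates 1 and 2, whereas other pairs lay at most at 2.26. Pou5f1 was at 579 to 589 CPM in WT against 505 to 653 CPM in C48S before RA, and at 22.0 to 24.1 CPM in WT against 65.1 to 71.5 CPM in C48S after RA. Because a single changed base does not remove the transcript, Pou5f1 counts are no check of the genotype. The summed level of 8 pluripotency markers was 5295 to 5409 CPM in WT against 5585 to 5699.9 CPM in C48S before RA, and 203 to 215 CPM and 687 to 728 CPM after it. The sums before RA hide opposite changes. Klf4 (212 against 639 CPM, log2 1.59), Esrrb (0.45) and Tdh (0.37) were higher in C48S. Nanog (-0.32), Sox2 (-0.28) and Tfcp2l1 (-0.28) were lower, and Pou5f1 and Zfp42 were not called. After RA all 8 were higher in C48S. In bulk RNA, fewer cells of a type and less RNA per cell cannot be told apart.

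Along the chromosomes, members whose spans lie at most 1 Mb apart formed 4 runs of 4 or more genes, with 56 members, and the other 37 are called dispersed here. Positions are those of the files, on GRCm39. Cluster 4A, on chromosome 4 from 145237329 to 147932823, holds 18 members from Zfp990 to Zfp933 in 2.7 Mb. Cluster 13A, on chromosome 13 from 67186660 to 67975121, packs 23 members from Zfp712 to Zfp273 into 0.79 Mb, and 17 of them have a synonym of the Rsl series in the RefSeq gene table. Cluster 2A lies on chromosome 2 from 149956326 to 150327011 and holds 4 members (Zfp120, Zfp937, Zfp442 and Zfp345). Cluster 2B lies on chromosome 2 from 174485327 to 177720269 and holds 11 members from Zfp831 to Zfp931, of which 5 could be tested.

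The members of the arrays resemble each other in sequence, which bears on how read pairs can be assigned. Of the 50-base words in the GENCODE M21 transcripts of a member, a median of 68.0% in cluster 4A also occurred in transcripts of another gene, against 84.7% in cluster 2B, 29.6% in 2A, 10.1% in 13A and 0.3% among dispersed members. In cluster 4A the share ran from 1.8% for Zfp933 to 89.0% for Zfp987, and 11 of its 18 members were at 50% or more. No counting of multi-mapping pairs is recorded in the file headers, so levels of these 11 are uncertain. Zfp982 (11.9%), Zfp985 (15.9%), Zfp979 (27.1%), Zfp990 (29.1%), Zfp981 (40.0%) and Zfp992 (43.0%) were among the members with less shared sequence.

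The likeness extends to the promoters. RefSeq (GRCm38.p6) gave windows of 300 bases, 250 upstream and 50 downstream of the start, for 75 members, 12 of them in cluster 4A. In cluster 4A the closest other window of the cluster was a median of 89.0% identical. Zfp600 and Zfp979 are shown because their windows are the most alike of the cluster, identical at 289 of 300 bases (96.3%), while their levels differed between the lines by different amounts. Both read 5′ to 3′ on the gene's strand, and capitals mark bases that differ from the partner or have no counterpart in its window. The Zfp600 window is chr4:146156577-146156876 on the plus strand and the Zfp979 window is chr4:147642459-147642758 on the minus strand.
Zfp600: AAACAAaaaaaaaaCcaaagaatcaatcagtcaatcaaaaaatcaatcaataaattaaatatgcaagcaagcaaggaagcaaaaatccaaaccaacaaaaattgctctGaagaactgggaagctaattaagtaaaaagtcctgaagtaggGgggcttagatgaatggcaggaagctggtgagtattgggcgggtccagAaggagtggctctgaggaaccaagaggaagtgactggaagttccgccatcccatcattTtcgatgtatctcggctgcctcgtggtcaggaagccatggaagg
Zfp979: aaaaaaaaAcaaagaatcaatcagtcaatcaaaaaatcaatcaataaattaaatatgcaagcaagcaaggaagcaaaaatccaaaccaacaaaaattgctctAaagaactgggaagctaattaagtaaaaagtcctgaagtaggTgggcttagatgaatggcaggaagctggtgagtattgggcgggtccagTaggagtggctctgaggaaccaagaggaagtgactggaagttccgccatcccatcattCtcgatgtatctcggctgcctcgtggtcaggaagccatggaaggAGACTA
Zfp985 and Zfp987, both on the plus strand at chr4:147553027-147553326 and chr4:146097062-146097361 on the same build, are identical at 267 of 300 bases (89.0%). They are not the closest pair left, and are shown because both lie on the plus strand and their levels differed between the lines by different amounts.
Zfp985: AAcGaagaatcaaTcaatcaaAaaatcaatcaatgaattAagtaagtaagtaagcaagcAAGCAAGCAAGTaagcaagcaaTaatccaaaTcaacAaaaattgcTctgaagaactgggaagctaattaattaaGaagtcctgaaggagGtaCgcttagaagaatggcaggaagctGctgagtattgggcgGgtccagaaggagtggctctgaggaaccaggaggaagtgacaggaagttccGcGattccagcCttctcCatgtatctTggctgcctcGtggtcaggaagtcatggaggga
Zfp987: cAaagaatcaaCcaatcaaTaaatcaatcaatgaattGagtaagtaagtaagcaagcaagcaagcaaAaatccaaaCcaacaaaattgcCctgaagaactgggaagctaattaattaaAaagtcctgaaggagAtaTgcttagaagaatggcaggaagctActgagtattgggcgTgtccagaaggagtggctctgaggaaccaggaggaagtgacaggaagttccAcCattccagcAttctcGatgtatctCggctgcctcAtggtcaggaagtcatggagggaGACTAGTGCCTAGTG
The octamer ATGCAAAT, the element that Oct4 and other POU factors bind, was searched on both strands. It occurred in 0 of the 15 windows of cluster 4A and in 2 of the 94 windows of all members, those of Zfp120 and Zfp345 in cluster 2A, against 570 of 32851 windows of all genes (1.74%). The windows of cluster 4A held a median of 4 CpG dinucleotides, those of dispersed members 18, and those of all genes 7.

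Cluster 4A supplied a large part of the members' RNA in WT cells and less of it in the other groups. Its summed level was 1427 ± 14.6 CPM (SD, n = 3) in WT undifferentiated libraries, 675 ± 86.0 in C48S undifferentiated, 475 ± 17.5 in WT after RA and 318 ± 5.12 in C48S after RA. That was 32.0%, 18%, 18.4% and 13% of the summed level of all 93 members. Cluster 13A, with more genes, stood at 432 ± 14.5, 407 ± 35.3, 297 ± 7.75 and 292 ± 7.20 CPM in the same order. The dispersed members summed to 2487 ± 14.9, 2571 ± 157, 1708 ± 19.4 and 1722 ± 3.22 CPM. Clusters 2A and 2B were low in every group, at 47.8 to 66.3 and 38.8 to 62.4 CPM by group mean.

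**Figure D1:**
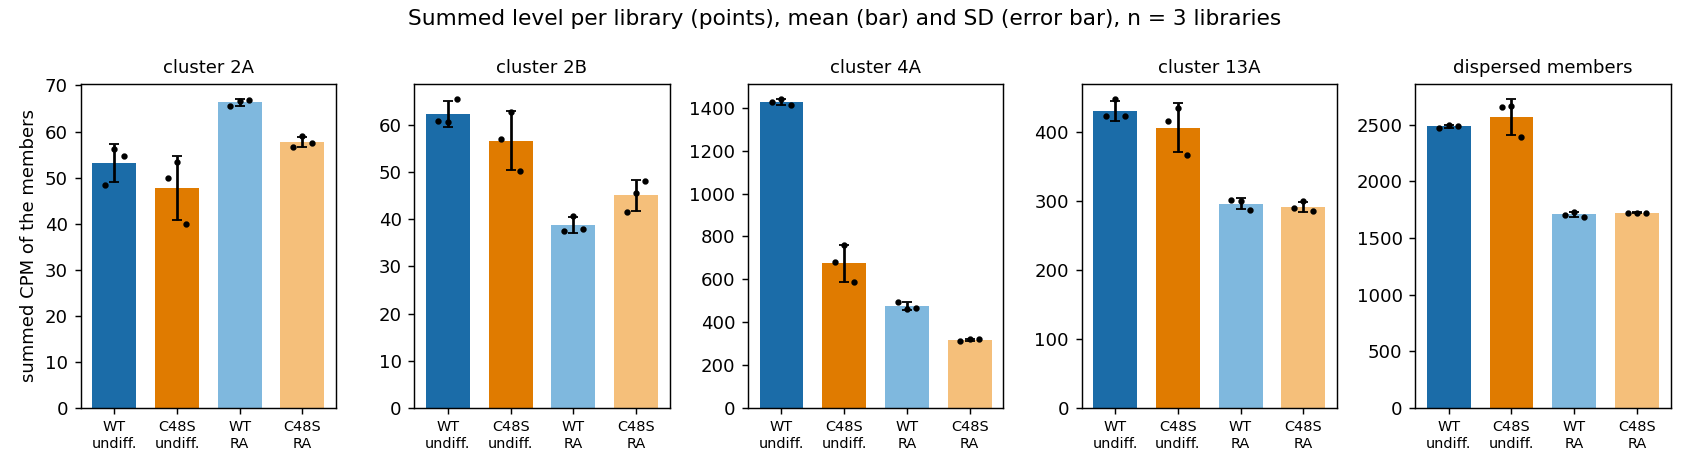
Summed CPM of the members of each cluster and of the dispersed members, by group (bars: mean, error bars: SD, points: the 3 libraries, each panel with its own axis from 0). In cluster 4A the WT undifferentiated libraries lie near 1427 CPM and every other group lies at or under 758 CPM.

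Per kilobase of gene model, the most abundant members of cluster 4A in WT undifferentiated cells were Zfp978 (97.6 CPM per kb), Zfp981 (81.4) and Zfp985 (52.5). In cluster 13A they were Zfp459 (18.9), Zfp65 (8.06) and Zfp748 (6.69), in cluster 2B Zfp971 (16.1), Zfp970 (7.19) and Zfp931 (3.48), and in cluster 2A Zfp345 (9.26), Zfp442 (3.14) and Zfp120 (2.6). Among dispersed members Zfp106, an RNA-binding protein needed by motor neurons and muscle, reached 92.3 CPM per kb, and Zfp462, a chromatin-bound factor that holds back lineage genes in embryonic stem cells, reached 35.0.

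How the lines differ in the undifferentiated state is the first question of the design, and in cluster 4A the answer was a broad lower level in C48S. Of its 18 members 15 were lower in C48S and 1 was higher, with a median log2 change of -0.95. Without C48S undifferentiated replicate 3, which stood apart, 14 were lower and the median was -0.84. Over all 17940 genes tested, 55.6% were called in this contrast, 28.1% lower and 27.5% higher, with a median of 0.00. Over the 80 tested members, 25 were lower and 16 higher (median -0.09), so 51.2% were called, close to the share over all genes, and 15 of the 25 lower calls fell in this 1 array. A call here is an adjusted p under 0.05 in edgeR's quasi-likelihood test with Benjamini-Hochberg adjustment over all genes tested.

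Zfp981, on chromosome 4 from 146586484 to 146623852, had 261, 262 and 249.99 CPM in undifferentiated WT libraries against 40.1, 50.2 and 34.6 CPM in those of C48S. The groups were far apart, and the log2 change was -2.63 ± 0.085 (SE, adjusted p = 2.35e-17). Zfp985 (chromosome 4, 147637734 to 147669655) was at 150.2, 153 and 149 CPM in WT against 39, 43.0 and 32.5 CPM in C48S, a change of -1.98 ± 0.072 (adjusted p = 1.54e-22). Again no C48S library came near a WT library. Zfp978 was at 112, 131 and 134 CPM in WT against 38.4, 38.9 and 25.7 CPM in C48S (-1.87 ± 0.12). Zfp992 was at 119, 105 and 98.5 CPM in WT against 36.3, 42.2 and 32.9 CPM in C48S (-1.53 ± 0.078). In each of these genes C48S replicate 3 was the lowest library. Zfp981, Zfp985 and Zfp992 share less than 50% of their 50-base words with other genes, while Zfp978 shares 77.4%.

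Zfp986, a low gene at chromosome 4, 145595364 to 145626545, had the steepest fall of all members. It was at 22.1, 19.7 and 16.5 CPM in WT against 3.73, 2.24 and 1.14 CPM in C48S (-2.98 ± 0.26, adjusted p = 4.98e-09), and 86.4% of its 50-base words are shared. Zfp982 was at 35.1, 36.1 and 42.1 CPM in WT against 11, 7.99 and 7.86 CPM in C48S (-2.05 ± 0.12). Zfp991 fell by 1.74 ± 0.15 on the log2 scale, from 16 ± 0.715 to 4.81 ± 0.964 CPM. Zfp600 fell by 1.57 ± 0.16, from 38.2 ± 2.13 to 12.7 ± 3.52 CPM, and Zfp988 by 1.06 ± 0.099, from 47.8 ± 3.10 to 22.9 ± 3.47 CPM. No library of one line overlapped the other line in these 5 genes.

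The remaining members of cluster 4A differed less. Zfp534 (-0.83 ± 0.10), Zfp987 (-0.58 ± 0.10), Zfp989 (-0.53 ± 0.11), Zfp979 (-0.49 ± 0.060) and Zfp980 (-0.44 ± 0.082) were lower in C48S without overlap of the libraries. Zfp990, the first gene of the array, was called lower at -0.18 ± 0.075 (adjusted p = 0.0479), with libraries at 109, 114 and 106 CPM in WT against 98.2, 112 and 81.6 CPM in C48S that overlapped. This call was marginal: it was lost in 10 of the 12 fits that left out 1 library (in all but those without WT undifferentiated replicate 3 or C48S undifferentiated replicate 2), in DESeq2, without chromosomes 6, 8, 11, 16 and Y, and with the compared groups alone. Cluster 4A then had 14 members lower. Zfp984 (-0.09 ± 0.074) and Zfp993 (-0.24 ± 0.29) did not pass the test. Zfp933, the last gene and the one with the least shared sequence, was the single member called higher, at 13.9, 16.2 and 13.1 CPM in WT against 21.1, 21.4 and 17.9 CPM in C48S (0.47 ± 0.11, adjusted p = 3.92e-04).

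The size of the fall varied along the array and with orientation. The 14 members on the plus strand had a median change of -1.55, and 13 of them were called lower. The 4 on the minus strand, Zfp979, Zfp534, Zfp984 and Zfp933, all at the far end, had a median of -0.29 with 2 called lower. Strand and position along the array cannot be told apart in so few genes. Of the promoter pairs shown above, with windows 96.3% identical, Zfp600 changed by -1.57 and Zfp979 by -0.49. Zfp985 and Zfp987, both on the plus strand, changed by -1.98 and -0.58. Other pairs differed less in their changes, with -1.06 and -0.83 in Zfp988 and Zfp534 (93.3% identical), and -0.44 and -0.49 in Zfp980 and Zfp979 (91.0% identical). Of these genes Zfp600, Zfp987, Zfp988, Zfp534 and Zfp980 share 81.2%, 89.0%, 68.1%, 68.4% and 71.3% of their 50-base words with other genes. Their levels are uncertain for that reason, and whether read assignment made part of the differences was not tested.

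Other genes inside the span of cluster 4A were mostly lower as well. Of 28 tested, 18 were lower (64.3%) and 1 higher in C48S, with a median of -0.97, where 28.1% of all genes were lower and 27.5% higher. The 3 protein-coding ones among them all fell: Rex2 from 51.3 ± 17.8 to 10.3 ± 3.45 CPM (-2.31 ± 0.29), Gm13212 from 64.3 ± 2.21 to 20.9 ± 0.474 CPM (-1.62 ± 0.082) and Gm21411 from 106 ± 4.48 to 52.6 ± 9.12 CPM (-1.01 ± 0.090). Immediately outside, 16 protein-coding genes, 8 on each side and at most 1.23 Mb away, split into 5 lower and 5 higher with a median of -0.03.

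**Figure D2:**
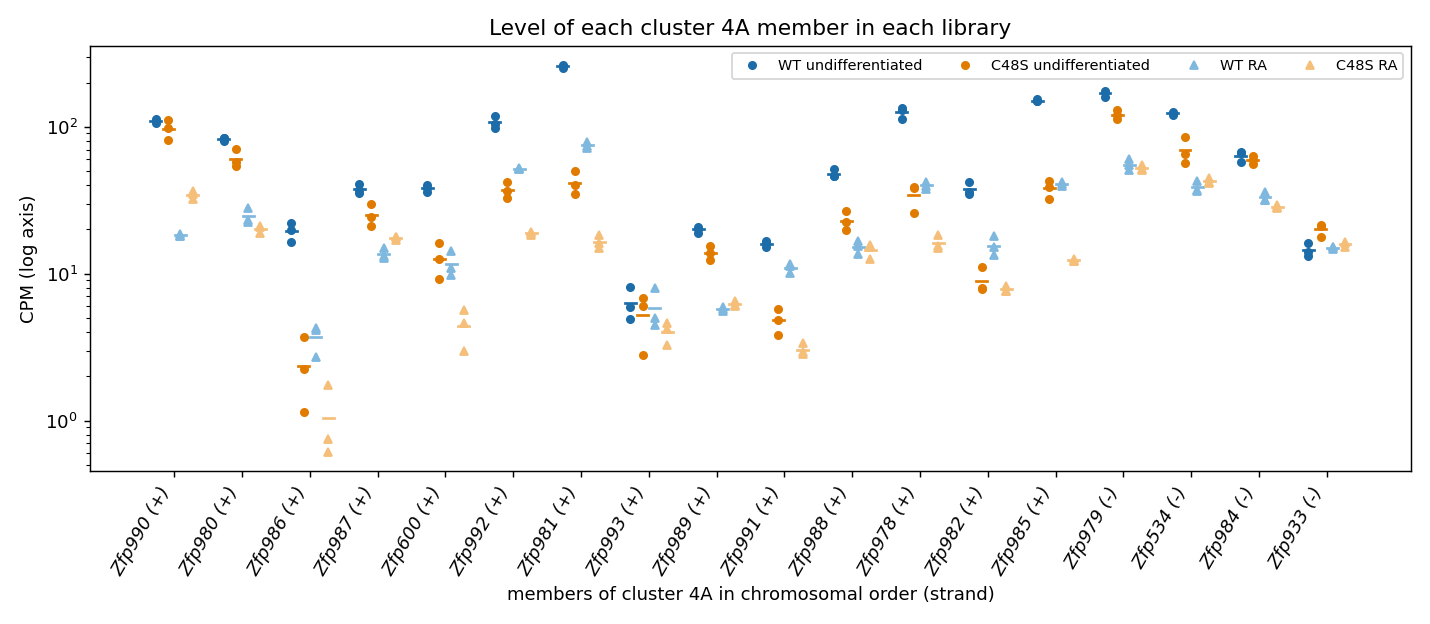
CPM of each member of cluster 4A in each of the 12 libraries on a log axis, in chromosomal order with the strand in brackets (points: libraries, lines: group means). The C48S undifferentiated libraries lie well under the WT undifferentiated ones for Zfp986, Zfp981, Zfp978, Zfp982 and Zfp985, and close to them for Zfp990, Zfp984 and Zfp933.

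After RA the lower level in C48S was kept in part of cluster 4A and turned in some members. In this state 54.5% of all genes tested were called, 28.8% higher and 25.7% lower in C48S. In cluster 4A 10 members were lower and 2 higher (median -0.39, or -0.24 without WT RA replicate 1), and 9 of the 15 that were lower before RA were lower again. How often such a repeated call occurred over all genes was not computed. Over the 80 tested members 23 were lower and 21 higher, with a median of 0.00.

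Zfp981 was at 79.0, 74.4 and 72.0 CPM in WT after RA and at 16.2, 15 and 18.5 CPM in C48S (-2.18 ± 0.099, adjusted p = 1.82e-14). Zfp985 was at 42.0, 39.3 and 40.7 CPM in WT against 12.3, 12.5 and 12.3 CPM in C48S (-1.72 ± 0.090, adjusted p = 7.68e-18). Zfp992 was at 51.3, 52.2 and 51.8 CPM in WT against 18.3, 18.8 and 19.3 CPM in C48S (-1.46 ± 0.088). In these genes each line's libraries lay close together and the lines stayed apart. Zfp991 (-1.85 ± 0.16), Zfp986 (-1.82 ± 0.39), Zfp600 (-1.36 ± 0.22), Zfp978 (-1.30 ± 0.14) and Zfp982 (-0.97 ± 0.14) were lower too.

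Zfp990 went the other way after RA. Its libraries were at 17.9, 18 and 18.8 CPM in WT against 32.4, 35.1 and 36.3 CPM in C48S, a change of 0.92 ± 0.099 (adjusted p = 2.48e-09) and the largest rise in C48S among the members called with the lines apart. Zfp987 also turned, to 0.37 ± 0.12, from 13.7 ± 1.21 CPM in WT to 17.6 ± 0.489 CPM in C48S. This call of Zfp987 was lost in DESeq2 and without WT RA replicate 3. Zfp534 (0.15 ± 0.11), Zfp979 (-0.07 ± 0.068), Zfp988 (-0.06 ± 0.12), Zfp989 (0.11 ± 0.15) and Zfp933 (0.08 ± 0.11), all called before RA, did not pass the test after it.

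**Figure D3:**
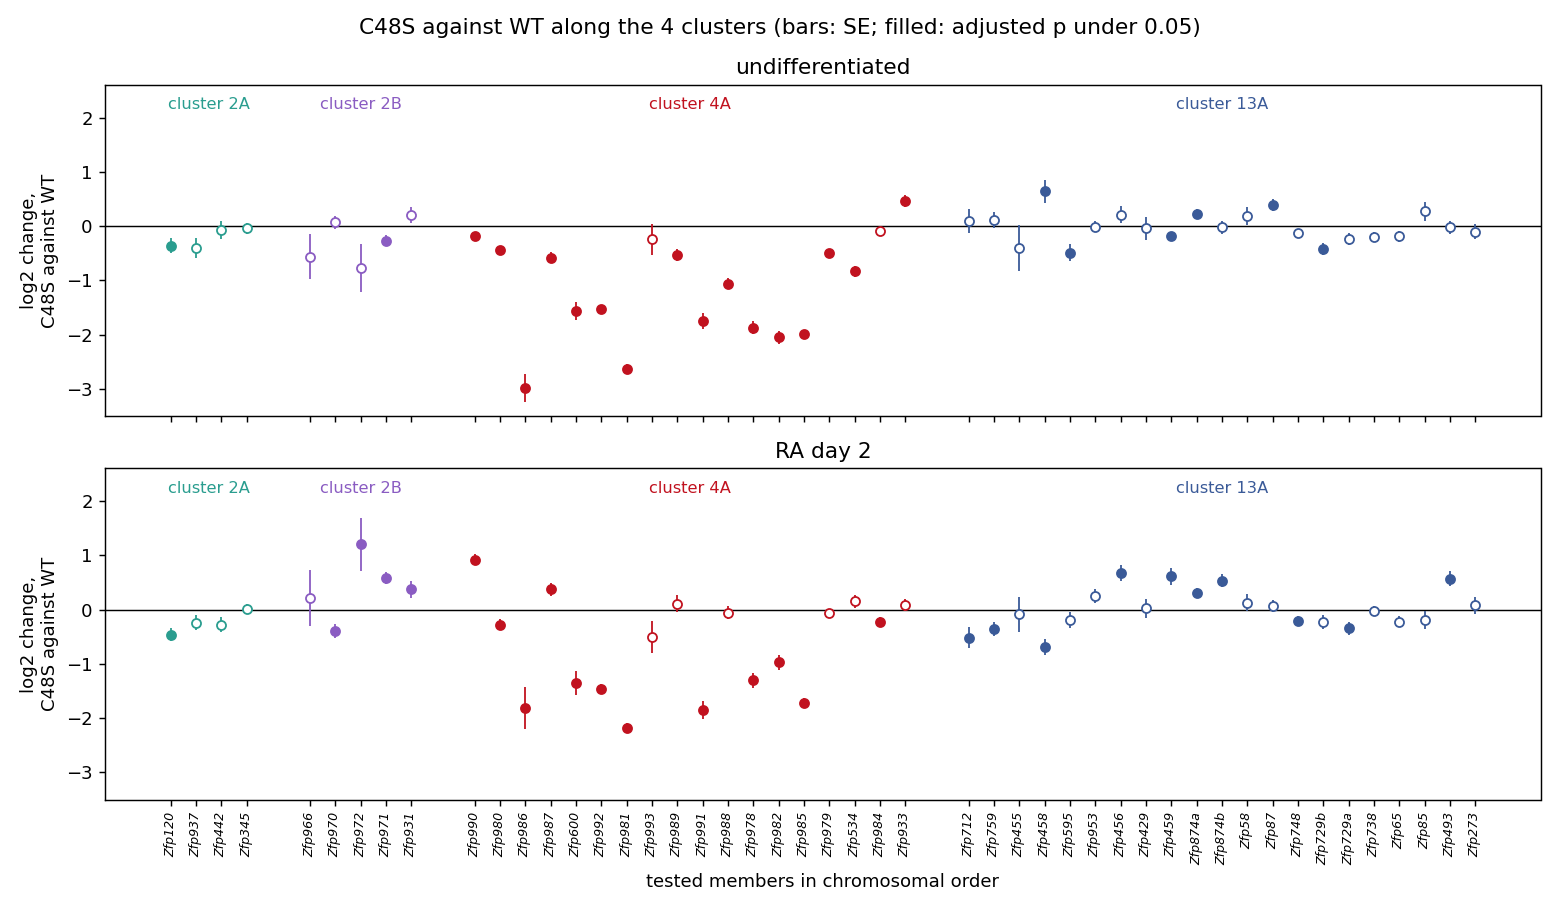
Log2 change of C48S against WT for the 48 tested members of the 4 clusters in chromosomal order, undifferentiated (top) and at RA day 2 (bottom), with bars for the SE and filled points for adjusted p under 0.05. Cluster 4A lies mostly under 0 in both panels, with medians of -0.95 and -0.39, while cluster 13A lies around 0, with a median of -0.02 in each.

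In cluster 13A, the largest array by number of genes, the lines differed in few members before RA. There 3 of 21 tested members were higher and 3 lower before RA (28.6% called), and 5 were higher and 5 lower after it, with a median of -0.02 in both states. Zfp458, whose RefSeq synonyms place it in the Rsl series, was at 3.04, 2.94 and 3.36 CPM in WT against 5.26, 5.54 and 3.62 CPM in C48S before RA (0.64 ± 0.21, adjusted p = 0.00953). After RA the order was opposite, with 12.5, 10.9 and 9.86 CPM in WT against 7.22, 7.39 and 6.02 CPM in C48S (-0.69 ± 0.15, adjusted p = 2.19e-04). Zfp456 (0.68 ± 0.15) and Zfp459 (0.61 ± 0.16) were higher in C48S after RA. Zfp595 (-0.49) and Zfp729b (-0.42) were lower before RA, and Zfp87 (0.39) and Zfp874a (0.22) higher. The call of Zfp874a was lost in DESeq2, and without WT undifferentiated replicate 1 or 3 or C48S undifferentiated replicate 2.

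In the arrays of chromosome 2, cluster 2B had 1 member called before RA, and 3 called higher and 1 lower after RA, of 5 tested. In cluster 2A only Zfp120 was called, lower in C48S before RA (-0.36 ± 0.13, 11.4 ± 0.692 against 8.96 ± 0.886 CPM) and after it (-0.46 ± 0.12, 14.2 ± 0.799 against 10.3 ± 0.839 CPM). Its call before RA was lost in DESeq2, with no low-count filter, and without WT undifferentiated replicate 2 or C48S undifferentiated replicate 1. In cluster 2B Zfp971 was called lower before RA (-0.27 ± 0.10) and higher after it, with 15.8, 16.2 and 14.3 CPM in WT against 22.0, 22.9 and 24.4 CPM in C48S (0.58 ± 0.11, adjusted p = 4.14e-05). After RA Zfp931 (0.37) and Zfp972 (1.20, at about 1 CPM in C48S) were called higher in C48S and Zfp970 (-0.40) lower. The call of Zfp931 (adjusted p = 0.0450) was lost in 11 of the 12 fits that left out 1 library, all but that without C48S undifferentiated replicate 3. That of Zfp972 was lost without WT RA replicate 1 or 2 or C48S RA replicate 3, and that of Zfp970 without WT RA replicate 2 or C48S RA replicate 1. In DESeq2 the calls of Zfp931 and Zfp972 were lost as well. Among the other genes in the span of cluster 2B, 16 of 26 tested (61.5%) were lower in C48S before RA and 0 were higher. Over all genes tested 28.1% were lower and 27.5% higher.

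Of the 32 dispersed members tested, 12 were higher and 5 lower in C48S before RA (median 0.16). That is 53.1% called, against 55.6% of all genes (27.5% higher and 28.1% lower). Over Zfp genes of other chromosomes, leaving out 6, 8, 11, 16 and Y, where earlier results of these data showed shifts between the lines, 66 of 225 tested were higher and 53 lower (median 0.05).

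Zfp37, on chromosome 4 from 62107777 to 62149284, was at 6.50, 6.38 and 5.21 CPM in WT against 14.2, 13.1 and 13.8 CPM in C48S, a rise of 1.18 ± 0.14 (adjusted p = 4.19e-09). Zfp334 was at 10.4, 10.2 and 8.13 CPM in WT against 21.2, 20.9 and 21.9 CPM in C48S (1.15 ± 0.11, adjusted p = 4.50e-11). Zfp64, described as a coactivator of Notch signalling, was at 70.6, 65.8 and 61.9 CPM in WT against 127, 120.4 and 122 CPM in C48S (0.90 ± 0.061, adjusted p = 6.13e-15). In all 3 genes every C48S library exceeded every WT library. Zfp322a, known as a factor that helps to maintain Pou5f1 and Nanog expression, rose from 32.5 ± 1.27 to 55.8 ± 3.70 CPM (0.78 ± 0.080). Zfp618, a partner of the 5-hydroxymethylcytosine reader UHRF2, was at 5.22 ± 0.487 and 8.28 ± 0.481 CPM (0.67 ± 0.14). Zfp169 (0.89 ± 0.14) and Zfp512b (0.69 ± 0.058) were higher as well.

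Further dispersed members with a known role were also measured. Zfp369, a neurotrophin receptor interacting factor, was higher in C48S (0.51 ± 0.091), as was Zfp346, which binds double-stranded RNA (0.50 ± 0.086), and Zfp184 (0.33 ± 0.12). The call of Zfp184 was lost in DESeq2, and without WT undifferentiated replicate 3 or C48S undifferentiated replicate 1. Zfp462 (-0.32 ± 0.059) and Zfp131, a BTB zinc finger protein (-0.36 ± 0.070), were lower. Zfp934, on chromosome 13, was lower in both states, at 12.9, 12.2 and 14.5 CPM in WT against 7.72, 8.20 and 5.58 CPM in C48S before RA (-0.87 ± 0.14), and at 23.3 ± 1.07 and 11.8 ± 1.12 CPM after it (-0.98 ± 0.12). Zfp106 (0.03), Zfp217, an oncogenic partner of corepressor complexes (-0.07), Zfp335, needed for neurogenesis (-0.11), Zfp341, which regulates STAT3 (-0.33), Zfp367 (0.02), Zfp408 (0.10), Zfp593, a ribosome assembly factor (-0.15), Zfp69, linked to lipid storage (0.22), and Zfp189 (0.28) did not pass the test in the undifferentiated state.

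After RA 11 of the 32 dispersed members tested were higher in C48S and 6 lower. That is 53.1% called, close to the 54.5% of all genes. Zfp462 was at 115, 128 and 117 CPM in WT against 206, 203 and 203 CPM in C48S (0.76 ± 0.062, adjusted p = 1.16e-11), the opposite of its order before RA. Zfp618 was at 32.7, 32.8 and 36.3 CPM in WT against 59.6, 62.3 and 59.0 CPM in C48S (0.83 ± 0.078), and Zfp64 at 54.4 ± 0.786 and 90.2 ± 5.64 CPM (0.73 ± 0.062). Zfp691 was at 7.05, 4.63 and 6.35 CPM in WT against 9.91, 13.5 and 9.27 CPM in C48S (0.86 ± 0.17). Over all members, 12 were lower in C48S in both states, 9 of them in cluster 4A, and 7 were higher in both states, 6 of them dispersed. The share of all genes called alike in both states was not computed. Of those higher in both, the call after RA was lost in DESeq2 for Zfp37, Zfp661, Zfp322a and Zfp369. For Zfp874a the call before RA was lost in DESeq2. Zfp64 and Zfp618 kept both calls in DESeq2. The calls turned from lower to higher in Zfp971, Zfp462, Zfp990, Zfp987, Zfp459 and Zfp131, and from higher to lower in Zfp808 and Zfp458. The lower call before RA was lost for Zfp990 as given above, for Zfp971 without WT undifferentiated replicate 2 or 3 or C48S undifferentiated replicate 3, and for Zfp459 without WT or C48S undifferentiated replicate 1 or 2. The higher call after RA was lost for Zfp987 without WT RA replicate 3. In DESeq2 each of these calls of Zfp990, Zfp971, Zfp459 and Zfp987 was lost as well. The call of Zfp971 before RA was also lost with the compared groups alone, and that of Zfp459 with no low-count filter. The contrasts before and after RA share no library.

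The response to RA is the second comparison of the design, and most members that changed fell. In WT 44 of the 80 tested members were lower after RA and 17 higher (median -0.34), where 78.3% of all genes were called, 37.4% lower and 40.9% higher, with a median of 0.06. In C48S 44 were lower and 13 higher (median -0.38), where 73.6% of all genes were called, 34.6% lower and 39% higher. Zfp genes elsewhere were more even, with 87 lower and 81 higher of 225 in WT, and 79 lower and 64 higher in C48S. In 36 members the fall was called in both lines and in 11 the rise, and Zfp169 rose in WT (0.45) and fell in C48S (-0.43). The share of all genes called alike in both lines was not computed, so counts of calls in both lines are description only.

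Cluster 4A fell together. In WT 16 of 18 members were lower after RA (median -1.65), and in C48S 16 were lower (median -1.07), with 15 lower in both lines. Zfp990 went from 109, 114 and 106 CPM to 17.9, 18 and 18.8 CPM in WT (-2.59 ± 0.091, adjusted p = 1.10e-21). In C48S it went from 98.2, 112 and 81.6 CPM to 32.4, 35.1 and 36.3 CPM (-1.49 ± 0.082). No RA library came near an undifferentiated one in either line. Zfp986 (-2.38 ± 0.24), Zfp985 (-1.89 ± 0.071), Zfp989 (-1.80 ± 0.13), Zfp981 (-1.78 ± 0.079), Zfp980 (-1.75 ± 0.090) and Zfp600 (-1.72 ± 0.17) followed in WT. In C48S the largest falls of the array were those of Zfp985 (-1.63 ± 0.091), Zfp980 (-1.58 ± 0.092), Zfp600 (-1.51 ± 0.22), Zfp990 and Zfp981 (-1.32 ± 0.11). Zfp993 stayed uncalled in every contrast, at group means of 4.03 to 6.37 CPM.

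Zfp459, in cluster 13A on chromosome 13 from 67553828 to 67569537, fell most of all members with RA. It was at 73.0, 68.1 and 66.7 CPM before against 3.63, 4.72 and 3.22 CPM after RA in WT (-4.15 ± 0.11, adjusted p = 2.90e-27). In C48S it was at 61.6, 58.1 and 62.5 CPM before against 6.07, 5.42 and 6.34 CPM after (-3.34 ± 0.10, adjusted p = 2.23e-25). Its neighbours did not share that size of change. In cluster 13A 11 of 21 were lower and 5 higher in WT (median -0.24), and 9 lower and 4 higher in C48S (median -0.17). Zfp953 (-1.26 ± 0.12 in WT and -1.01 ± 0.11 in C48S) and Zfp493 (-1.18 ± 0.14 and -0.59 ± 0.13) fell, as did the abundant Zfp65 (-0.46 and -0.48) and Zfp748 (-0.33 and -0.40). Zfp458 rose by 1.83 ± 0.18 in WT, from about 3.11 to 11.1 CPM, and by 0.51 ± 0.18 in C48S.

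A few more members of cluster 13A rose with RA from low levels. Zfp455 rose from 1.21 ± 0.257 to 2.28 ± 0.307 CPM in WT (0.88 ± 0.36) and from 0.911 ± 0.541 to 2.17 ± 0.791 CPM in C48S (1.18 ± 0.37). The call in WT was lost without WT undifferentiated replicate 1 (0.78) or 3 (0.80) or WT RA replicate 3 (0.77), and that in C48S without C48S RA replicate 2 (0.88). DESeq2 also lost the WT call. Zfp429 rose by 0.51 ± 0.19 in WT and by 0.57 ± 0.19 in C48S, or by 0.35 in C48S without C48S undifferentiated replicate 3.

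In cluster 2A no member fell. Zfp937 rose from 7.26 ± 0.773 to 14.2 ± 1.71 CPM in WT (0.97 ± 0.16) and from 5.5 ± 1.82 to 12.2 ± 1.12 CPM in C48S (1.14 ± 0.17), and Zfp442 rose by 0.75 ± 0.15 and 0.54 ± 0.15. Zfp120 rose in WT (0.31 ± 0.12), and Zfp345, at 21.1 to 26.6 CPM in all 12 libraries, was called in no contrast. That rise of Zfp120 lost its call in DESeq2, and without WT undifferentiated replicate 1 or 3 or WT RA replicate 1. In cluster 2B 4 of 5 tested members fell in WT and 2 in C48S. Zfp971 was the most abundant and fell from 34.6 ± 1.86 to 15.4 ± 1.02 CPM in WT (-1.16 ± 0.11) and from 28.7 ± 5.34 to 23.1 ± 1.23 CPM in C48S (-0.32 ± 0.10).

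Among the 32 dispersed members tested 13 fell and 9 rose in WT, and 17 fell and 7 rose in C48S. That is 68.8% and 75% called, against 78.3% and 73.6% of all genes. Zfp618 was at 5.14, 4.79 and 5.75 CPM before against 32.7, 32.8 and 36.3 CPM after RA in WT (2.71 ± 0.11, adjusted p = 1.03e-21), and rose by 2.87 ± 0.096 in C48S. Zfp362 was at 8.81, 11.3 and 9.87 CPM before against 47.5, 47.7 and 42.4 CPM after RA in WT (2.18 ± 0.10), and rose by 1.99 ± 0.095 in C48S. Both genes were several times higher in every RA library than in any undifferentiated one. Zfp385b, related to a p53-responsive zinc finger family, rose from 1.00 ± 0.356 to 3.59 ± 0.854 CPM in WT (1.87 ± 0.31) and from 0.350 ± 0.119 to 2.94 ± 0.134 CPM in C48S (3.01 ± 0.39). Zfp334 rose by 1.88 ± 0.10 in WT and by 0.61 ± 0.090 in C48S, Zfp346 by 0.93 ± 0.083 and 0.50 ± 0.078, and Zfp934 by 0.83 ± 0.12 and 0.72 ± 0.14.

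Several abundant dispersed members fell with RA. Zfp462 was at 361, 379 and 383 CPM before against 115, 128 and 117 CPM after RA in WT (-1.64 ± 0.062), and changed by -0.56 ± 0.060 in C48S. Zfp292 was at 283, 299 and 277 CPM before against 108, 103 and 104.2 CPM after in WT (-1.45 ± 0.062), and changed by -1.21 ± 0.061 in C48S. Their RA libraries lay far under the undifferentiated ones in WT. Zfp131 (-1.43 and -0.75), Zfp408 (-1.06 and -0.64), Zfp335 (-1.04 and -0.42), Zfp217 (-0.78 and -0.72), Zfp367 (-0.64 and -0.46), Zfp593 (-0.62 and -0.99) and Zfp106 (-0.54 and -0.95) fell in WT and C48S. Zfp808 fell by 0.36 ± 0.10 in WT and by 1.22 ± 0.10 in C48S, and Zfp322a was called lower in C48S (-0.57 ± 0.077) and had a change of -0.04 ± 0.084 in WT.

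Markers of other cell types were measured in the same libraries. Markers of trophoblast summed to 23.3 to 24.4 CPM in WT against 25.7 to 27.6 CPM in C48S before RA, and to 532 to 545 CPM and 278 to 301 CPM after it, over 7 genes. Most of that sum after RA was Krt8 (159 against 87.5 CPM) and Krt18 (341 against 112 CPM), which epithelia in general express. Of the lineage factors after RA, Cdx2 (2.95 against 38.2 CPM, log2 3.68) and Eomes (5.96 against 21.7 CPM, log2 1.86) were higher in C48S. Gata3 (log2 0.11) and Hand1 (0.05) were not called, and Elf5 was not tested. Before RA Cdx2 (-3.42), Hand1 (-3.04) and Gata3 (-1.34) were lower in C48S, and Eomes (0.54) was higher. The 6 markers of 2-cell-like cells summed to 11.7 to 13.9 CPM in WT against 1.49 to 1.76 CPM in C48S before RA, and to 318 to 332 CPM and 49.5 to 54.2 CPM after it. The 10 fibroblast and feeder markers summed to 338 to 369.9 CPM, 454 to 605 CPM, 154 to 163 CPM and 141 to 153 CPM in undifferentiated WT, undifferentiated C48S, WT with RA and C48S with RA. In undifferentiated C48S the larger part was Col1a1. It was higher than in WT (log2 0.91), as were Col1a2 (1.32), Postn (2.33), Prrx1 (0.85) and Twist1 (0.59). Dcn (-0.67), Lum (-0.36) and Thy1 (-0.54) were lower than in WT, and Col3a1 (0.13) and Twist2 (-0.23) were not called. In the same order the 5 neuroectoderm markers summed to 112 to 113 CPM, 84.3 to 109.5 CPM, 104.03 to 108 CPM and 64.4 to 70.2 CPM. The 5 markers of extraembryonic endoderm summed to 9.23 to 11.6 CPM, 9.72 to 13.4 CPM, 55.3 to 57.9 CPM and 60.4 to 63.1 CPM. The neuroectoderm sums hide opposite changes. With RA in WT, Tubb3 fell from 69.5 to 2.50 CPM (log2 -4.79), while Pax6 (3.86), Sox1 (2.1), Nes (1.12) and Map2 (1.04) rose. In C48S Tubb3 fell (-3.23), and Pax6 (5.44), Sox1 (1.57), Nes (0.51) and Map2 (0.39) rose. After RA Sox1 (2.07) and Tubb3 (2.50 against 5.92 CPM) were higher in C48S than in WT. Pax6 (-1.53) and Nes (-1.22) were lower, and Map2 (0.28) was not called. No marker of these 5 lists was without a count in any group. Their part in the changes of the zinc finger genes was not tested.

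Whether the lines responded differently to RA was tested by an interaction: from the change with RA in C48S, that in WT was subtracted. Of the 80 tested members 19 were called with a positive and 12 with a negative difference (median 0.10). Over all genes 39.4% were called, 22.2% positive and 17.2% negative. In cluster 4A 9 of 18 were called positive and 1 negative (median 0.44), and in each of those 9 the RA change was less negative in C48S. The negative one, Zfp933 (-0.39, adjusted p = 0.0433), lost its call in 9 of the 12 fits that left out 1 library, and kept it without WT undifferentiated replicate 2, C48S undifferentiated replicate 3 or C48S RA replicate 2. DESeq2 and a fit with no low-count filter lost that call too. The interaction uses the same undifferentiated libraries as the line contrast, in which most of these genes were lower in C48S, so its values are not independent of that contrast.

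Zfp990 had an interaction of 1.10 ± 0.12 (adjusted p = 1.53e-08), Zfp982 of 1.08 ± 0.19 (adjusted p = 1.51e-05) and Zfp988 of 1.00 ± 0.15 (adjusted p = 2.28e-06). In Zfp982 the level went from 37.8 ± 3.76 to 15.5 ± 2.28 CPM with RA in WT and from 8.96 ± 1.79 to 7.88 ± 0.359 CPM in C48S, where the change of -0.20 ± 0.15 did not pass the test. Outside the array Zfp462 had 1.08 ± 0.086 (adjusted p = 1.39e-11). Zfp972 had the largest value, 1.97 ± 0.66 (adjusted p = 0.0157), at group means of 0.515 to 1.35 CPM. Its call was lost in DESeq2, and without WT undifferentiated replicate 3 (1.75), WT RA replicate 1 (1.73) or 2 (1.61), or C48S RA replicate 3 (1.62). Among negative values Zfp458 (-1.33 ± 0.26), Zfp334 (-1.26 ± 0.14), Zfp169 (-0.88 ± 0.19), Zfp808 (-0.87 ± 0.14), Zfp512b (-0.78 ± 0.079) and Zfp37 (-0.78 ± 0.19) led. In Zfp334, Zfp169 and Zfp512b, C48S was higher before RA, and after it the lines did not differ by the test, with changes of -0.12, 0.01 and -0.09.

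**Figure D4:**
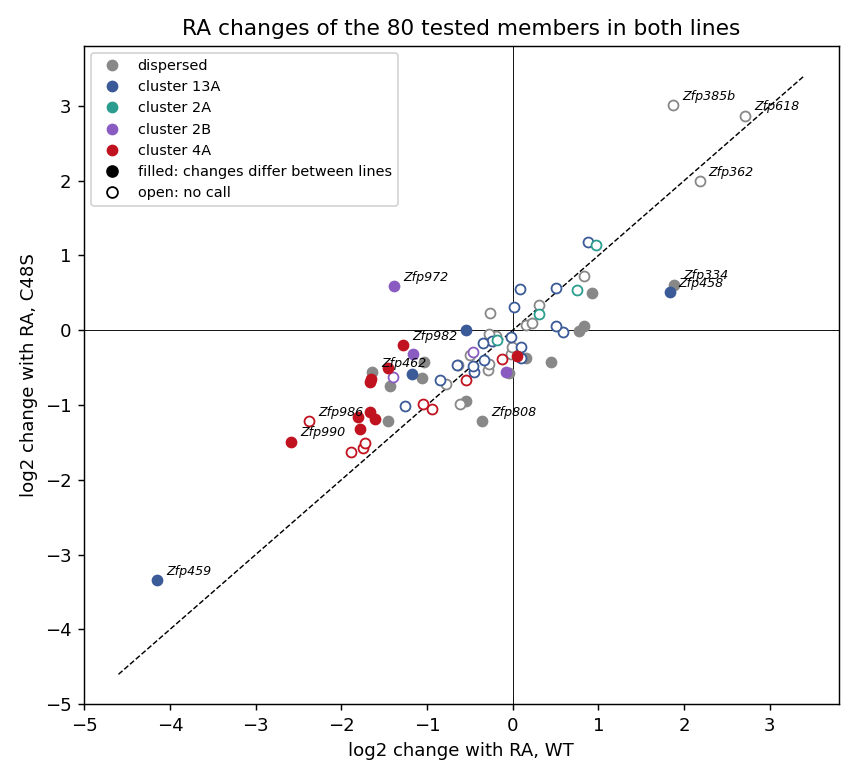
Log2 change with RA in C48S (vertical axis) against that in WT (horizontal axis) for the 80 tested members, coloured by cluster, with filled points where the changes differed between the lines and a dashed line of equal change. Cluster 4A points other than that of Zfp933 lie in the lower left and 9 of the 10 filled ones lie above the line, while Zfp618 and Zfp362 rose in both lines.

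Cofactors of KRAB zinc finger proteins were measured in a list of 30 genes, of which 29 were matched and tested. That list also holds other genes of H3K9 methylation and silencing, such as Suv39h1, Ehmt2, Dnmt1 and Atrx. The counts below are for the whole list. With RA 24 fell and 5 rose in WT (median -0.86), and 20 fell and 3 rose in C48S (median -0.53). Over all genes tested 37.4% fell and 40.9% rose in WT, and 34.6% fell and 39% rose in C48S. Between the lines 14 were lower and 9 higher in C48S before RA (median -0.12), and 4 were lower and 17 higher after it (median 0.22). Of all genes 28.1% were lower and 27.5% higher before RA, and 25.7% lower and 28.8% higher after it. Trim28, the corepressor that the KRAB domain binds, was at 2785 CPM in WT against 1906 CPM in C48S before RA (-0.55), and at 633 and 787 CPM after it (0.32). Setdb1, the H3K9 methyltransferase it recruits, was at 258 and 219 CPM before RA (-0.24) and at 117 and 132 CPM after it (0.17). Atf7ip, a partner of SETDB1, was at 327 and 237 CPM before RA (-0.47), and its paralogue Atf7ip2 at 42.1 and 9.66 CPM (-2.12). Atf7ip lies on chromosome 6 and Atf7ip2 on 16, 2 of the chromosomes named above for earlier shifts between the lines. Suv39h1, another H3K9 methyltransferase (1.18), and the HP1 genes Cbx3 (0.83, also on chromosome 6) and Cbx5 (0.62) were higher in C48S before RA. Their paralogues Suv39h2 (-0.20) and Cbx1 (-0.67, on chromosome 11, also named above for earlier shifts) were lower. Interaction values were called positive in 19 of the 29 and negative in 2, while 22.2% and 17.2% of all genes tested were called so.

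For comparison, 6 KRAB zinc finger genes of other chromosomes with described targets took no single course. Zfp57, which guards imprinted loci, was at 465 CPM in WT against 673 CPM in C48S before RA (0.53), and at 61.0 and 216 CPM after it (1.83). Zfp809, which silences a group of endogenous retroviruses, was at 104.2 and 47.1 CPM before RA (-1.15) and at 136 and 46.1 CPM after it (-1.56). Zfp568, a repressor of an Igf2 transcript, was at 344 and 246 CPM before RA (-0.48) and at 220 and 367 CPM after it (0.74). Zfp819 changed by -0.01 before RA and 3.12 after it, and Zfp961, on chromosome 8, by 0.43 and 1.92, while Zfp932 was called in neither contrast of the lines.

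The 13 members that were not tested had few counts. Zfp935 had none in any library. Zfp804a had none in WT undifferentiated and C48S RA, with 5 counts over the 3 C48S undifferentiated libraries and 1 in WT RA, and Zfp683 none in WT undifferentiated, with 9, 6 and 8 in C48S undifferentiated, WT RA and C48S RA. Zfp663, Zfp969 and Zfp967 had no count in C48S undifferentiated and 1, 8 and 6 in WT undifferentiated. Zfp831 had 1 and 2 counts before RA and 23 and 21 after it in WT and C48S. Zfp708, a KRAB protein known to bind a retrotransposon, had 7, 2, 3 and 2 counts in WT and C48S before RA and in WT and C48S after it, and Zfp366 had 3, 2, 10 and 10. The rest of these members, Zfp968, Zfp965, Zfp973 and Zfp457, had between 1 and 27 counts per group, so differences of their levels were not detectable at this depth. A count of 0 over a group is compatible with up to 3 counts.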

How the data were processed

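Libraries were made from ribosome-depleted total RNA, per the labels' protocols, and STAR 2.7.9a, DESeq2 and mm39 are named in the submitters' processing notes. The authors deposited raw counts per gene, made with featureCounts 1.6.3 on read pairs (strand option 2, assignment by largest overlap, Ensembl release 104), per the file headers. GENCODE M21 named 52135 of 55416 identifiers (94.1%).

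Genes with too few counts were dropped by filterByExpr of edgeR 4.0.16 (R 4.3.3, minimum count 10), and libraries were scaled by TMM. A robust quasi-likelihood model then gave each group a mean over all 12 libraries, with 8 residual degrees of freedom. In all, 17940 genes were tested, with Benjamini-Hochberg adjustment over all of them and calls at adjusted p under 0.05. CPM denotes counts scaled by the TMM-adjusted library size in the usual way, and log2 changes carry the SE of the fit. Replicates of a group correlated at r of 0.993 to 0.996. Contrasts compared the lines before RA and after it, the states within WT and within C48S, and both responses through an interaction.

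The members, the cofactor and marker lists and the rules were chosen with earlier results of these data known. Named were, per contrast, the 8 largest rises and falls among members called with at least 1 CPM and groups that do not overlap, the 6 largest interactions each way, the 3 most abundant members per cluster and kilobase, members with a described role, and members without a count in a group. Other members named were chosen after their values were seen. Tested on simulated counts for C48S against WT before RA (12829 genes), 48% of genes given a 1.25-fold change were called, 70% at 1.5-fold, 94% at 2-fold and 98% at 4-fold, while unchanged genes made up 7.19% of the calls. Only 50 genes were changed at each fold, and all groups were drawn from WT undifferentiated means, without an RA change. In the data 55.6% of genes were called between the lines before RA, so these shares need not carry over. Alternatives were RLE scaling, DESeq2 1.42.0, other filters and gene sets, compared groups alone, a null of 1.5-fold, a replicate block, each library left out, other gaps between members, and, added after seeing the data, leaving out members with at least 50% of their 50-base words shared. Chromosomal positions are those of the files, and promoter windows are on GRCm38.p6.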

Additional observations from a re-analysis of the deposited data

Results flagged for a closer look

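In 31 members the RA change differed between the lines by edgeR's interaction test (adjusted p under 0.05), 19 with a positive and 12 with a negative value. Each value is the log2 change with RA in C48S less the log2 change with RA in WT. Over all genes tested 39.4% were called in this contrast. In cluster 4A the values were 1.10 for Zfp990, 1.08 for Zfp982, 1.00 for Zfp988, 0.98 for Zfp534, 0.95 for Zfp987, 0.64 for Zfp989, 0.57 for Zfp978, 0.46 for Zfp981, 0.42 for Zfp979 and -0.39 for Zfp933. In cluster 13A they were 0.80 for Zfp459, 0.59 for Zfp493, 0.55 for Zfp874b and -1.33 for Zfp458. In cluster 2B they were 1.97 for Zfp972, 0.85 for Zfp971 and -0.48 for Zfp970. Positive values among dispersed members were 1.08 for Zfp462, 0.69 for Zfp131, 0.62 for Zfp335, 0.42 for Zfp408 and 0.24 for Zfp292. Negative values among dispersed members were -1.26 for Zfp334, -0.88 for Zfp169, -0.87 for Zfp808, -0.78 for Zfp512b, -0.78 for Zfp37, -0.53 for Zfp184, -0.53 for Zfp322a, -0.43 for Zfp346 and -0.41 for Zfp106.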

How the results depend on the processing

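No value reversed under any alternative run, and among 5061 values of called members under alternatives 317 lost their call, 134 of them under the null of a 1.5-fold change and 136 with 1 library left out. Under that null the members called higher and lower were 6 and 11 for C48S against WT before RA, 4 and 9 after RA, 10 and 28 for RA in WT, 5 and 18 for RA in C48S (10 of cluster 4A lower), and 6 and 3 for the interaction. Without the members that share at least 50% of their 50-base words, which leaves 7 members in cluster 4A, 15 members were lower in C48S before RA, and of cluster 4A 6 were lower before RA, 4 after RA, 6 with RA in WT and 6 with RA in C48S, with 12 positive interactions. Fewer genes counted account for these smaller numbers by construction. Leaving out 1 library at a time gave 14 to 18 higher and 21 to 28 lower before RA (cluster 4A 14 to 15 lower), 17 to 24 and 17 to 26 after RA (8 to 11), 14 to 19 and 43 to 45 for RA in WT (16 in each), 12 to 16 and 38 to 48 for RA in C48S (15 to 17), and 15 to 21 and 10 to 16 for the interaction. With DESeq2 or other filters, scalings, gene sets or compared groups alone every count stayed within 1.5 times. Replicate numbers did not pair the libraries (correlations of their deviations from -0.0687 to 0.0451), and with the number as a replicate block 16 members were higher and 28 lower before RA, 20 and 22 after it, and the RA and interaction counts were those reported. Of cluster medians 46 moved, most of them in cluster 2B, whose median over 5 tested genes is not given for that reason. An alternative by protein identity was not run, since no protein sequences were used here. Levels under 1 CPM, as for Zfp972, rest on few counts.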
